A study of Mus musculus with 4 samples.

Results

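The cells described here are the 128 P0 epithelial cells of the mouse mammary gland that met a luminal progenitor-like rule. They were chosen by their UMI counts of 12 genes, so those genes' values are given only as a description. The cells come from the library of newborn glands (P0, the day of birth), in which 503 cells (of 1630 that passed the same limits over all 4 stages) had at least 5000 UMIs (unique molecular identifiers, 1 per transcript counted) and at most 6% of them from mitochondrial genes. E is the sum of Epcam, Krt8, Krt18, Krt5, Krt14 and Krt15 UMIs and M the sum of Col1a1, Col1a2 and Col3a1 UMIs. A member had E of at least 10 and more than 2 times M, at least 5 UMIs of Krt8 and Krt18 together, at least 2 UMIs of Aldh1a3, and fewer than 3 UMIs of Cited1 and Prlr together. The members made up 25.4% of the kept P0 cells (exact 95% binomial interval 21.7 to 29.5) and 55.9% of the 229 epithelial cells (49.2 to 62.4).

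The study profiled mammary cells of 3 embryonic stages (E13.5, then E14.5, then E15.5) and of newborn mice by droplet single-cell RNA-seq, to follow when epithelial cells take on luminal or basal identity. All 4 libraries came from wild-type female C57B6 mice (substrain B6/N by the study's methods), and each pooled tissue of several animals. EpCAM-positive epithelial and EpCAM-negative stromal cells were sorted after blood and endothelial cells had been gated out, so the sort sets the shares of cell types given here. P0 glands were digested with more collagenase and less hyaluronidase than the embryonic rudiments, and red blood cells were lysed at P0. With 1 library per stage, no value has a replicate, cells are not replicates of one another, and the intervals cover counting error only.

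The other kept P0 cells fell into groups by fixed UMI counts. Of the epithelial cells outside the rule, the 18 with at least 5 UMIs of Acta2, Myh11 and Cnn1 together were called basal-like. Of the remaining cells with at least 5 Krt8 and Krt18 UMIs, the 33 with at least 3 UMIs of Cited1 and Prlr were called hormone-sensing-like, and the 50 with fewer of these and fewer than 2 of Aldh1a3 Aldh1a3-low luminal. Mesenchyme cells (265) had M of at least 10 and more than 2 times E, and 9 cells stayed unassigned. The members held 1371043 UMIs, with a median of 9796 per cell (quartiles 8596.5 and 11525), against medians of 14042 in hormone-sensing-like, 10147 in basal-like, 9205 in Aldh1a3-low luminal and 8778 in mesenchyme cells. No P0 barcode among the kept cells occurred in another library, and Scrublet, a doublet caller, marked 0 members and 3 mesenchyme cells.

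Luminal cells line the milk ducts and lie inside a layer of contractile basal cells. In the adult gland, luminal progenitors lack most hormone receptor expression and give rise to the alveolar cells that make milk under the ETS factor Elf5 and the prolactin-activated factor Stat5, whereas hormone-sensing luminal cells carry the receptors for estrogen, progesterone and prolactin and signal to their neighbours through ligands such as amphiregulin (Areg). Aldh1a3 turns retinaldehyde into retinoic acid and is widely used as a progenitor marker, and Wfdc18 encodes a small secreted protein of the whey acidic protein family.

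Promoter sequences are shown for Wfdc18, the most abundant of the progenitor markers in these cells, and for Elf5, whose protein binds ETS motifs. Of 10 progenitor markers fixed for this work, 7 had a promoter in the RefSeq table of GRCm38.p6 (250 bases before to 50 bases after the transcript start), with 9 promoters in all. The ETS core AGGAAG (or CTTCCT, its reverse complement) and the Stat5 motif TTCNNNGAA, a palindrome, were searched on both strands, and capitals mark a match. The Wfdc18 window lies at chr11:83708754-83709053 on the plus strand and the Elf5 windows at chr2:103411848-103412147 and chr2:103423818-103424117, also on the plus strand, for its upstream and downstream starts.
Wfdc18: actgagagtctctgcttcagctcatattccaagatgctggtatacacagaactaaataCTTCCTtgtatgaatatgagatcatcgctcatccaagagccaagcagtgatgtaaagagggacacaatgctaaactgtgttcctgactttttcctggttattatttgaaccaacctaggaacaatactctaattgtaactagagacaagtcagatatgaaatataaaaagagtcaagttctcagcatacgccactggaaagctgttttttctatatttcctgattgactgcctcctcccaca
Elf5, upstream start: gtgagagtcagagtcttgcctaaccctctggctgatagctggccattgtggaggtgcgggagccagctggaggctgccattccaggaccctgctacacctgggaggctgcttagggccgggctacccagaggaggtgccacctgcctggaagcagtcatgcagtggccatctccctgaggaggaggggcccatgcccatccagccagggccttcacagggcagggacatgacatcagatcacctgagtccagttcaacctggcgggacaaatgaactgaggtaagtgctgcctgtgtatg
Elf5, downstream start: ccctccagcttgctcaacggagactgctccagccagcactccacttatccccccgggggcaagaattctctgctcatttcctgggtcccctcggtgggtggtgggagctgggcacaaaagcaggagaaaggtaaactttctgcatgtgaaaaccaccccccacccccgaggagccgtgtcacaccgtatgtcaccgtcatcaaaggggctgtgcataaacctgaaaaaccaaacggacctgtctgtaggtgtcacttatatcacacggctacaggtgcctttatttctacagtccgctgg
The Wfdc18 window held 1 ETS core, 192 bases before the start, and the Elf5 windows held neither motif. Krt8, Areg and Kit windows also held the ETS core, so that 4 of the 7 markers did, and none of the 7 held TTCNNNGAA. Among all 32851 promoters of the table, 35.4% held the ETS core and 8.30% the Stat5 motif. These shares count promoters, whereas the marker counts are of genes with a match in any window, so they differ in unit. Since TTCNNNGAA was not found in the marker windows, no matches overlapped there. A match is a run of letters, not evidence of binding.

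Of the 12 genes of the rule, Aldh1a3 (chr7:66390890-66427517, minus strand, GENCODE M21) ranged from 2 to 82 UMIs per member, with a median of 9 and quartiles of 4 and 19. Its summed level was 1282 CPM (UMIs per 1000000 UMIs of the group, 95% Poisson interval 1222 to 1343) in the members, 46.7 in hormone-sensing-like, 30.9 in Aldh1a3-low luminal and 10.2 in basal-like cells. Of the 265 mesenchyme cells, 25 (9.43%, 6.20 to 13.6) also had at least 2 Aldh1a3 UMIs, at a group level of 80.2 CPM. Of the 197 Aldh1a3 UMIs of the mesenchyme cells, 113 were in 4 cells with 57, 29, 19 and 8, which also had 2343 to 30858 CPM of Wfdc18. The other 261 had at most 5 UMIs each, 207 of them 0, at 34.9 CPM together. Cited1 and Prlr were at 0 UMIs together in 114 of the 128 members (89.1%), and 5 cells of the 227 that passed the luminal limits crossed both cuts. The keratins Krt8 and Krt18 were at 5699 and 4297 CPM in the members, and Krt8 at 6005 CPM in hormone-sensing-like cells. Krt14, a keratin of basal cells, had a UMI in 81.2% of members and 9.43% of mesenchyme cells, at 926 CPM in the members, while its usual partner Krt5 had 2 UMIs in all members together.

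**Figure D1:**
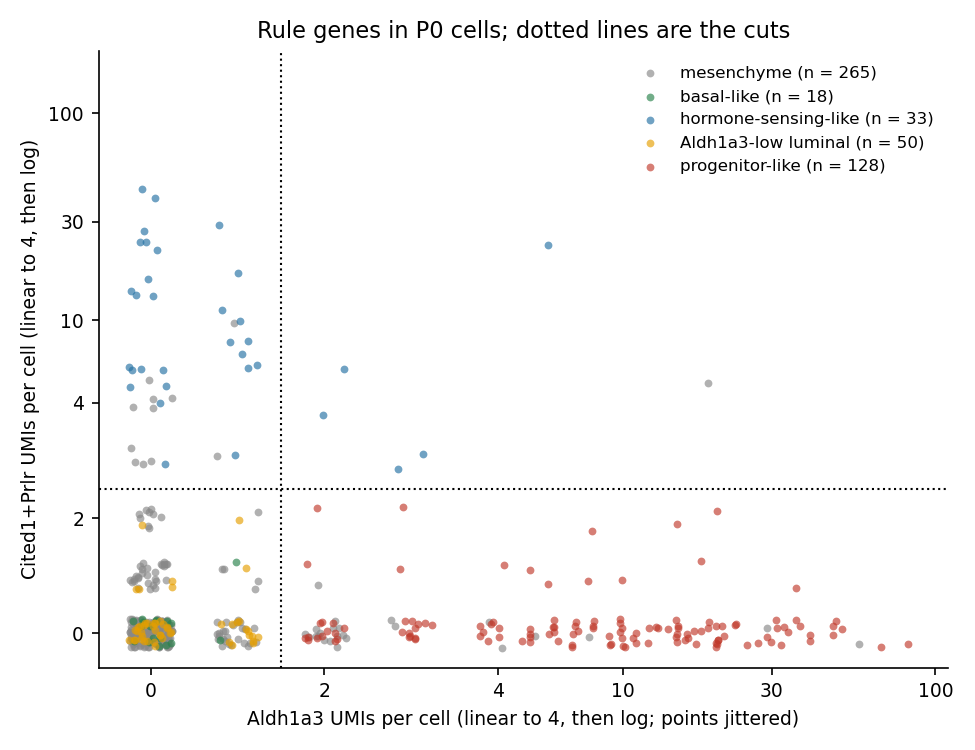
Aldh1a3 UMIs (x axis) against Cited1 plus Prlr UMIs (y axis) in 494 P0 cells, 1 point per cell coloured by group, both axes linear to 4 and then logarithmic, with the cuts as dotted lines. The 128 members lie right of and below the cuts by construction, and some mesenchyme cells share that corner.

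Of the markers outside the rule, Wfdc18 and Lypd3 were at least 2-fold higher than in the other epithelial cells together but less than 2-fold higher than in Aldh1a3-low luminal cells, Elf5 was sparse, and Areg was not higher in the members. Wfdc18 (chr11:83709015-83711348) was at 6223 CPM in the members (6092 to 6356), 3532 in Aldh1a3-low luminal, 358 in basal-like and 25.1 in hormone-sensing-like cells. Its level in the members was 4.29-fold that of the other epithelial cells together (4.07 to 4.51). It had a UMI in 97.7% of members (96.1% after every cell was thinned to 5000 UMIs) and in 29.8% of mesenchyme cells (18.9% thinned), which should lack it and had a median depth of 8778 UMIs against 9796 in the members. Lypd3, a surface protein of the Ly6 family, was at 289 CPM in the members and 2.48-fold over the other epithelial cells (2.05 to 3.02). It was at 186 CPM in Aldh1a3-low luminal cells, a ratio of 1.56 (1.24 to 1.98), and the ratio for Wfdc18 was 1.76 (1.67 to 1.86).

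Elf5 (chr2:103411688-103450989) had 39 UMIs in the members, 28.4 CPM (20.2 to 38.9), with a UMI in 21.1% of them and 1.13% of mesenchyme cells, against 45.4 CPM (28.4 to 68.7) in Aldh1a3-low luminal cells. It had 0 UMIs in the hormone-sensing-like and basal-like cells, where the exact intervals reached 6.62 and 18.9 CPM. Kit, the receptor of stem cell factor, was at 26.3 CPM in the members and 68.0 in Aldh1a3-low luminal cells. The Kit intervals of the members (18.4 to 36.4) and the Aldh1a3-low cells (46.8 to 95.6) did not overlap, while their Elf5 intervals did. These intervals leave out the spread between cells. Within the Aldh1a3-low cells, Kit was at 90.6 CPM in the 35 with 0 Aldh1a3 UMIs and 19.5 (4.02 to 57.0) in the 15 with 1.

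Areg, one of the marker genes named for these cells, was higher in the hormone-sensing-like cells. Its level was 589 CPM in the members (549 to 631) and 3143 in hormone-sensing-like cells (2998 to 3294), a ratio of 0.187 (0.172 to 0.204). The members were close to Aldh1a3-low luminal cells at 616 CPM and above basal-like cells at 225. Cd14, a coreceptor for lipopolysaccharide, was at 56.9 CPM in the members and 117 in hormone-sensing-like cells, and the integrin Itgb3, used to sort adult luminal progenitors, had 1 UMI in the members and 51.3 CPM in mesenchyme. Notch1 was at 93.4 CPM, 129.9 in Aldh1a3-low luminal and 50.3 in hormone-sensing-like cells. Of the 7 markers outside the rule that reached 20 CPM against the other epithelial cells, Wfdc18 and Lypd3 were at least 2-fold higher in the members and Areg at least 2-fold lower, where 3.62% of all 5412 genes compared were higher and 3.12% lower.

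**Figure D2:**
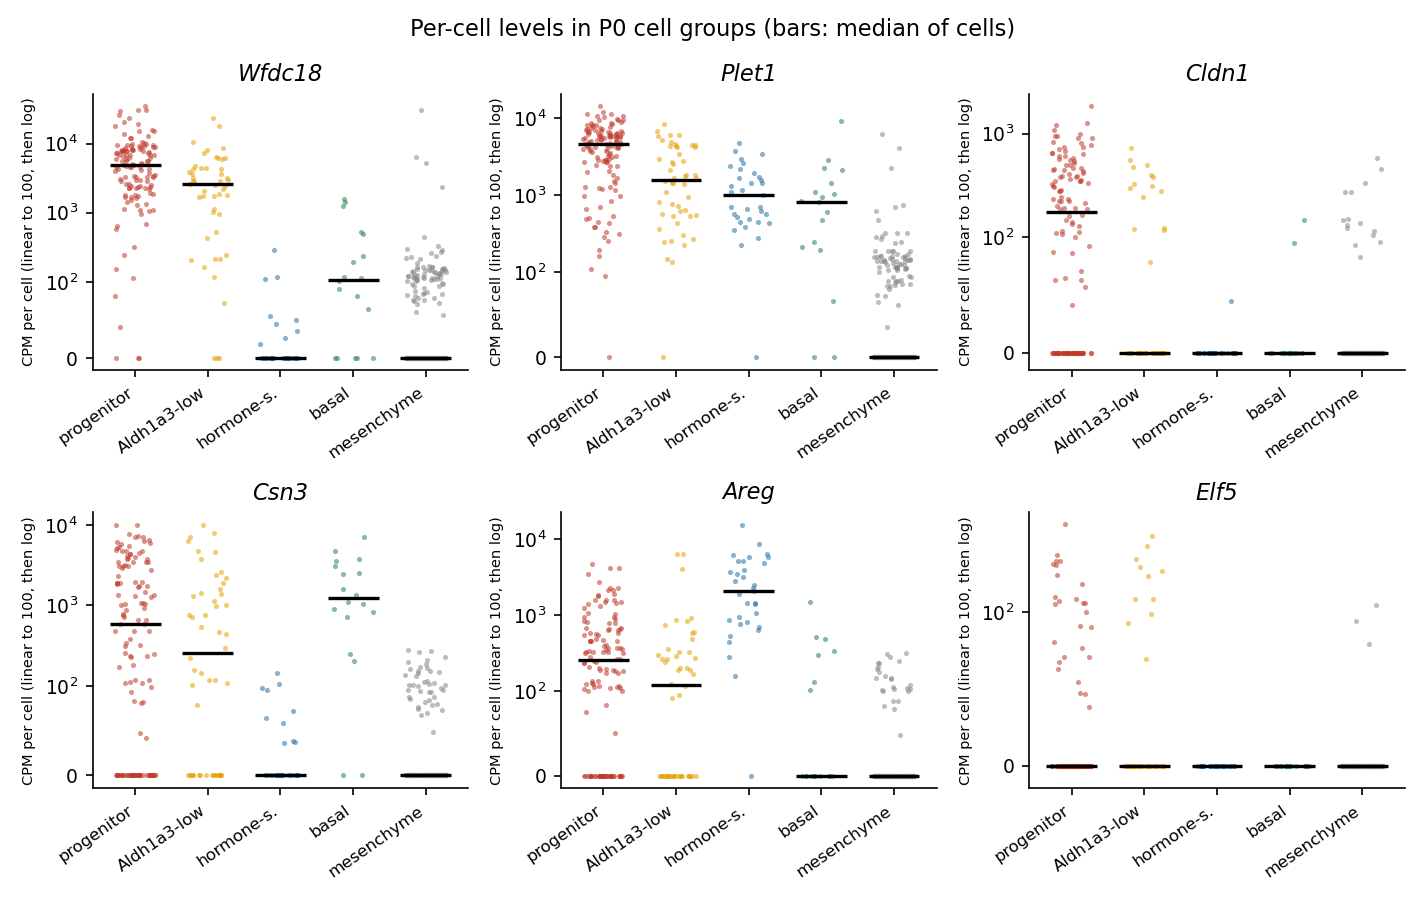
CPM in each P0 cell (y axis, linear to 100 and then logarithmic) for Wfdc18, Plet1, Cldn1, Csn3, Areg and Elf5 in 5 groups (x axis), 1 point per cell with the median as a bar. Wfdc18 and Plet1 are high in nearly all members, Csn3 is spread from 0 upward, Areg is highest in hormone-sensing-like cells, and the median of Elf5 is 0 in every group.

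Against all other kept P0 cells, of which most were mesenchyme, 754 of 5553 genes (13.6%) were at least 2-fold higher in the members and 679 (12.2%) at least 2-fold lower. These are all genes whose mean of the 2 levels reached 20 CPM, and their median log2 ratio was 0.25. With mitochondrial and ribosomal protein genes left out of the totals, 816 of these genes were higher and 659 lower (983 and 803 of the 6427 that then reached 20 CPM). Genes used by the rule were left out of the named genes, which also had a UMI in at least 25% of the cells of the higher group. The highest ratio belonged to Rnase1, a secreted ribonuclease, at 67.8 CPM and 19.6-fold (10.9 to 38.1), followed by Slc5a8, a sodium-coupled carrier of monocarboxylates, at 16.7-fold (10.3 to 28.3). The peptide carrier Slc15a2 was 9.53-fold higher, the mitochondrial carrier Slc25a48 13.9-fold, the calcium-activated potassium channel Kcnn4 9.68-fold and the proton pump subunit Atp6v1b1 9.40-fold. Plet1, a surface protein of several epithelia, was among the most abundant of the 20 at 4522 CPM (7.29-fold, 6.95 to 7.65), and the peptide hormone Edn1 reached 10.1-fold (7.81 to 13.3).

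Foxc1, a forkhead transcription factor, was at 57.6 CPM and 10.8-fold (6.55 to 18.6). It had a UMI in 32.8% of members, 22.0% of Aldh1a3-low luminal cells, 0 of 33 hormone-sensing-like cells and 0.377% of mesenchyme cells. The rest of the 20 were Cldn1, Cadm4, Wfdc18, Ajuba, Sorbs2, Pard6b, Rhpn2, Prrg4, Sowahb, Lypd3 and Fgd6, with ratios from 7.20 to 12.4. The list of junction and polarity genes summed to 12846 CPM in the members and 3117 in all other cells, Epcam of the rule included. The list includes claudins, which seal tight junctions, and Cdh1, the adhesion protein of epithelia. The 12 mesenchyme markers, of which 3 are collagens of the rule, summed to 419 and 61953 CPM. Both sums follow from how the cells were chosen and are a description.

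The other epithelial cells are the closer comparison. Here 196 of 5412 genes (3.62%) were at least 2-fold higher in the members and 169 (3.12%) at least 2-fold lower, with a median log2 ratio of 0.08 over all genes tested. With mitochondrial and ribosomal protein genes left out of the totals, the median of these genes moved by -0.13 and 163 genes were higher and 323 lower of the 6346 that then reached 20 CPM. Of the same 5412 genes, 126 were higher and 217 lower. The ratios and list counts that follow are not adjusted for that shift, except where these genes are said to be left out. Ltf, the iron-binding milk protein lactoferrin, had the highest ratio, at 120.3 against 17.0 CPM or 7.09-fold (4.49 to 11.8). Only 27.3% of members and 0.755% of mesenchyme cells had an Ltf UMI, and its log2 ratio of 2.83 moved to 1.32 with at least 4 Aldh1a3 UMIs required and to 1.11 with Cited1 and Prlr at 0. Cldn1 (chr16:26356642-26371841), a tight junction protein, was at 272 CPM in the members, with a UMI in 65.6% of members (53.1% thinned), against 94.8 CPM in Aldh1a3-low luminal and 1.80 in hormone-sensing-like cells. Its ratio to the other epithelial cells was 6.73 (5.0 to 9.24), and it had a UMI in 5.66% of mesenchyme cells.

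Akap12, a scaffold for protein kinase A, was 6.76-fold higher (5.22 to 8.87) and the small heat shock protein Cryab 4.20-fold (2.90 to 6.24). Rnase1, Slc5a8, Slc25a48, Cadm4, Edn1, Foxc1 and Fgd6 were again among the 15 highest, with ratios between 3.40 and 6.99, and Rab7b, Epb41l4a and Snx18 completed them. At the low end, Acta2, the smooth muscle actin of basal cells that set the basal-like group apart, stood at 0.0109 times its level in the other epithelial cells (0.00608 to 0.0180). Its log2 ratio of -6.52 moved to -4.37 when at least 1 Aldh1a3 UMI was required. The hyaluronan synthase Has2 (0.0767 times), the matrix protein Mgp (0.0855 times) and the basement membrane collagens Col4a2 and Col4a1 (0.114 and 0.171 times) were also lower. So were the lipid carrier Apoe (0.142 times), the iron carrier Trf (0.146 times), the protease inhibitor Slpi (0.167 times) and Tbx3, a T-box factor of early mammary buds (0.226 times). Crispld2, Tnip3, Tspan1, Dlk1, Lifr and Trp53inp1 were the other 6, from 0.106 to 0.210 times. All of the named ratios stayed past 2-fold when the top cell of each group was left out.

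**Figure D3:**
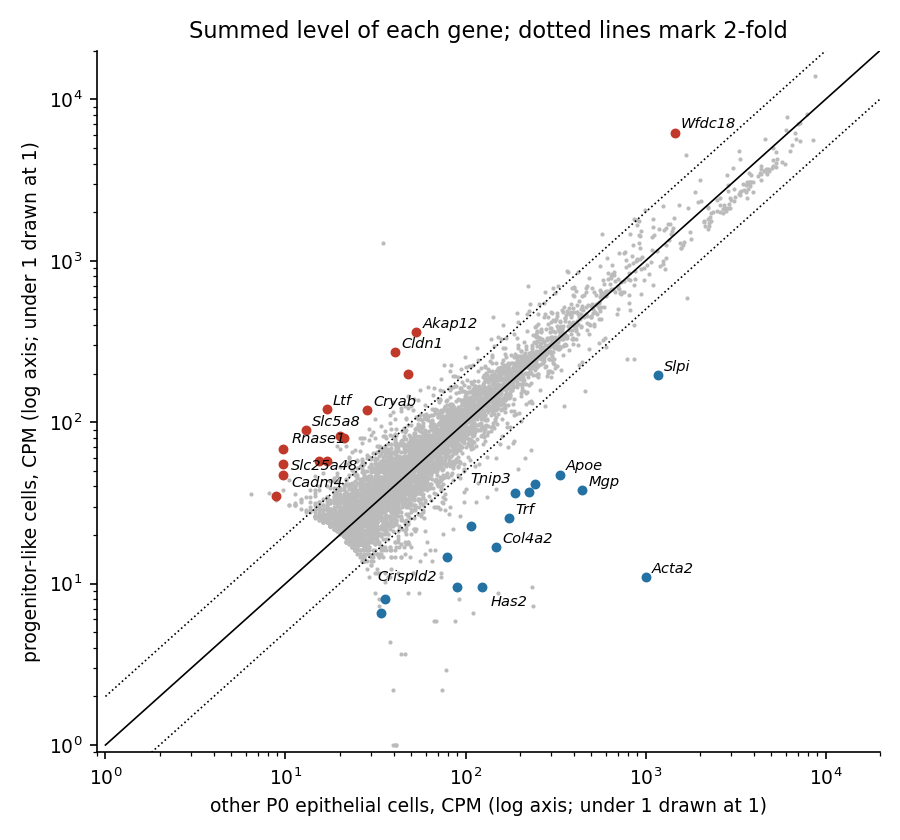
Summed level of 5412 genes in the members (y axis, CPM) against the other P0 epithelial cells (x axis, CPM), both axes logarithmic, with the 15 named higher genes in red, the 15 named lower genes in blue and 2-fold as dotted lines. Levels under 1 CPM are drawn at 1. Most genes lie between the dotted lines, and Wfdc18 is both abundant and above them.

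Milk and secretory genes were mixed. Of 16 tested against the other epithelial cells, 6 were at least 2-fold higher (Wfdc18, Ltf, Csn3, Plet1, Lgals3, Spp1) and 5 at least 2-fold lower (Csn2, Csn1s1, Trf, Slpi, Saa1), against 3.62% and 3.12% of all genes, with a list median of 0.54 on the log2 scale. Against Aldh1a3-low luminal cells alone, 2 of 17 were higher (Ltf, Spp1; 3.11% of all genes) and 5 lower (Csn2, Csn1s1, Csn1s2a, Trf, Slpi; 1.56%). Csn3 (chr5:87925579-87932665), which encodes kappa-casein, was at 1819 CPM in the members, 1894 in basal-like, 1429 in Aldh1a3-low luminal and 18.0 in hormone-sensing-like cells. Lcn2, which binds iron-carrying siderophores, was at 1696, 3583, 1893 and 136 CPM in the same groups. Of the 4 epithelial groups, hormone-sensing-like cells had the lowest level of both genes, and Lcn2 was higher in basal-like cells than in the members. Csn2 rested on single cells and Csn1s1 on few. Of the 92 Csn2 UMIs of the members, 91 were in 1 cell, all 285 of the Aldh1a3-low luminal cells were in 1 cell, and Csn1s1 had 15 UMIs in 3 members. Without the top cell of each group, Csn1s1 stood at 0.246 times its level in the other epithelial cells (0.0901 to 0.581). Csn2 then stood at 0.451 times (0.00765 to 8.66). Wap had 0 UMIs in the members.

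Of the junction and polarity list, 8 of 30 tested were at least 2-fold higher than in the other epithelial cells, among them Cldn1, Cldn3, Cldn6 and Cgn, and 1 at least 2-fold lower (Cldn10), with a median of 0.59. With mitochondrial and ribosomal protein genes left out of the totals, 4 of the 30 were higher and 1 lower, with a median of 0.46. Against Aldh1a3-low luminal cells alone, 2 of 29 were higher (Cldn1, Cgn; 3.11% of all genes) and none lower. Of the luminal transcription factors, 1 of 21 was higher (Foxc1) and 3 lower (Foxa1, Tfap2b, Tbx3), with a median of 0.18. The share of all genes was 3.62% higher and 3.12% lower, so 1 of 21 is near the background. Foxa1 is a pioneer factor for estrogen receptor binding, and Tfap2b is an AP-2 factor. Sox9, a factor of progenitor cells in many epithelia, was at 609 CPM in the members and 438 in hormone-sensing-like cells, and the Elf5 relatives Ehf and Elf3 were at 123 and 50.3 CPM. Among keratins, Krt7, Krt23 and Krt80 were higher and Krt6a lower of 7 tested. Lipid synthesis and droplet genes held none higher and 1 lower (Fabp5) of 10, and antigen presentation genes none of 5 in either direction.

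Against hormone-sensing-like cells, 546 of 5504 genes (9.92%) were at least 2-fold higher in the members and 469 (8.52%) lower, with a median log2 ratio of -0.01. Without mitochondrial and ribosomal protein genes in the totals 460 of the same 5504 genes were higher and 629 lower (577 and 827 of the 6438 that then reached 20 CPM), and the median moved by -0.13. Wfdc18 was 248-fold higher (148 to 453) and Csn3 101-fold (55.0 to 212). Thbs1, the matrix glycoprotein thrombospondin 1, was at 1521 CPM with a UMI in 97.7% of members and 94.0% of mesenchyme cells, against 35.9 CPM, a 42.4-fold ratio (27.4 to 69.5). Snorc, a membrane proteoglycan, was 47.4-fold higher (25.7 to 99.1) and the secreted protease Adamts1 51.3-fold (19.9 to 189). The matricellular protein gene Ccn2 had 0 UMIs in hormone-sensing-like cells. Its ratio of 41.0 used 3 counts there, and its interval began at 33.2. Cldn1 had 1 UMI in those cells (ratio 152, 27.0 to 6002), Atp6v1b1 had 1 and Apod 2. Akap12 completed the 10, at 40.1-fold.

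On the low side were Fam25c, Crabp1, R3hdml, AW112010, Gpx3, Pir, Clca3a2, Upk3a, Has2 and Tnfsf10, at 0.00829 to 0.0493 times the level of hormone-sensing-like cells. Crabp1 binds retinoic acid in the cytoplasm, and it had 3 UMIs in the members and 92 in the 33 hormone-sensing-like cells. Rdh10, which makes retinaldehyde, was also at least 2-fold lower, and none of the 4 retinoid pathway genes tested was at least 2-fold higher. Stra6 and Rarb had 0 UMIs in the members. The hormone-sensing list, which holds Cited1 and Prlr, summed to 390.2 CPM in the members and 2572 in hormone-sensing-like cells, as the grouping sets, and the members had 4 Esr1 and 9 Pgr UMIs in all.

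Cell cycle genes summed to lower levels in the members than in hormone-sensing-like cells. The 20 G2 and mitosis genes together were at 273 CPM in the members and 1470.2 in hormone-sensing-like cells, and the 20 S phase genes at 402 and 837 CPM. Cells with at least 2 UMIs of Top2a and Mki67 made up 10 of 128 members (7.81%, 3.81 to 13.9) and 9 of 33 hormone-sensing-like cells (27.3%, 13.3 to 45.5), which were deeper. After thinning, Top2a had a UMI in 7.81% of members and 27.3% of hormone-sensing-like cells. In Aldh1a3-low luminal cells the G2 and mitosis genes summed to 136 CPM, with Top2a at 30.9 CPM against 74.4 in the members. By the same count of Top2a and Mki67 UMIs, 4 of the 50 Aldh1a3-low luminal cells were cycling (8%, 2.22 to 19.2), a share like that of the members. Of the members' 102 Top2a UMIs, 1 cell with 2 Aldh1a3 UMIs held 23 and 1 cell with 3 held 25.

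Of the EGF family, the ligand Hbegf and the receptor Egfr were at least 2-fold higher than in hormone-sensing-like cells and Areg lower, of 9 tested, where 9.92% of all genes compared were higher and 8.52% lower. Of the Notch pathway, Notch2 and Maml1 were at least 2-fold higher than in hormone-sensing-like cells of 8 tested, and none was lower. Without mitochondrial and ribosomal protein genes in the totals, 1 of the 8 was higher and 0 lower. With lists this short, 1 gene of 8 or 9 is near the share of all genes. The Notch ligand Jag1 was at 8.75 CPM in the members and 235 in basal-like cells, and the target Hes1 at 167, 162 and 41.0 CPM in members, hormone-sensing-like and basal-like cells.

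Against basal-like cells, 934 of 5217 genes (17.9%) were at least 2-fold higher in the members and 515 (9.87%) lower, with a median log2 ratio of 0.22, from only 18 basal-like cells with 195352 UMIs. Without mitochondrial and ribosomal protein genes in the totals 757 of the same 5217 genes were higher and 637 lower (988 and 875 of the 6170 that then reached 20 CPM), and the median moved by -0.17. Lgals3, a galectin, had 0 UMIs in basal-like cells and 846 CPM in the members. Its ratio of 55.1 used a fixed count in place of 0, and its interval began at 44.7. Keratins of simple epithelia and claudins were among the 10 highest. Krt7 was 62.1-fold higher (17.1 to 514), Krt19 48.6-fold, Cldn4 48.0-fold (22.0 to 131), Cldn7 31.4-fold and Cldn3 30.8-fold. Ly6d had the highest ratio, 111-fold (30.7 to 919) from 2 basal-like UMIs, and Wfdc2 was 26.7-fold higher. Tmpo and the protease St14 were also among the 10, from 1 basal-like UMI each (26.6-fold, 4.72 to 1058, and 26.2-fold, 4.65 to 1041), and on the log2 scale went from 4.74 and 4.71 to 1.98 and 2.01 with every cell thinned to 5000 UMIs. Of the lower genes, Myh11 and Acta2 defined the group, and Mylk, Myl9, Moxd1, Il17b, Ecrg4, Ckb and Sema5a ranged from 0.00509 to 0.0158 times. Moxd1 and Ecrg4 had 1 UMI each in the members. With every cell thinned, their log2 ratios went from -7.62 and -6.98 to -4.57 and -4.05. Snai2, a repressor of epithelial genes found in basal cells, had 0 UMIs in the members and 29 in basal-like cells. Its ratio of 0.0147 used the same fixed count in place of 0, and its interval reached 0.0193. The basal list, which holds Acta2, Myh11 and Cnn1, by which the basal-like cells were defined, summed to 1811 CPM in the members and 14947 in basal-like cells.

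Fewer genes were past 2-fold from the Aldh1a3-low luminal cells than from the hormone-sensing-like or basal-like cells. Here 164 of 5266 genes (3.11%) were at least 2-fold higher and 82 (1.56%) at least 2-fold lower, and none of the 7 progenitor markers tested was higher, while Kit was lower. With mitochondrial and ribosomal protein genes left out of the totals, 116 of the same genes were higher and 119 lower (184 and 201 of the 6167 that then reached 20 CPM), and the median moved by -0.12. With every cell thinned to 5000 UMIs, 318 of 5291 were higher and 198 lower. Among luminal cells with few Cited1 and Prlr UMIs, Wfdc18 was at 3062 CPM in the 35 cells with 0 Aldh1a3 UMIs and 4544 in the 15 with 1. It was at 7334 in the 15 with 2 and 6754 in the 14 with 3. It was at 4322 in the 15 with 4 to 5, under the level with 1. The 37 with 6 to 14 had 6009 CPM and the 47 with 15 or more 6472. Plet1 was at 2382 and 2080 CPM just outside the cut (0 and 1 UMI) and 4138 and 4013 just inside it (2 and 3 UMIs). Cldn1 was at 103 and 78.0 CPM outside, 98.0 and 184 just inside, and 328 with 15 or more. The summed levels of Wfdc18 and Plet1 were lower in the cells with 1 Aldh1a3 UMI than in those with 2. A single cell held 229 of 699 Wfdc18 UMIs in the former and 318 of 973 in the latter. The intervals leave out the spread between cells, so they do not show whether the bins differ. Without the top cell of each bin, Wfdc18 was at 3264 CPM with 1 UMI, 5299 with 2 and 3482 with 4 to 5. At the other cut, the 5 members with 2 UMIs of Cited1 and Prlr had 6608 CPM of Wfdc18, of which 1 cell held 325 of 485 UMIs, and 2553 CPM without that cell. The 2 cells with 3 UMIs that otherwise met the rule had 0 UMIs of Wfdc18 and Csn3.

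Among the members, 1542 genes had a mean of at least 0.5 UMI in cells thinned to 5000 UMIs, and the variance divided by the mean had a median of 1.28 over them. The 15 most variable genes by this measure were led by Gm42418 (118) and Cxcl2 (36.8). Malat1, a nuclear noncoding RNA (29.8), and AY036118 (17.2) were also among them. Of the rest, Wfdc18 (32.6), Fst (19.2), Fos (18.5), Csn3 (17.0), Cxcl1 (15.0), Ly6d (14.4), Crip1 (14.3), Ptgs2 (13.8) and Anxa1 (12.1) followed, with Hist1h2ap (16.0) and Actb (12.9). The chemokine Cxcl2 had a UMI in 35.9% of members, with 136 UMIs in 1 of them, and in 47.5% of mesenchyme cells. Wfdc18 varied in level rather than in presence, with quartiles of 2276 and 8267 CPM per cell around a median of 4955.

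The members varied in opposite directions in Csn3 and Ly6d. Ly6d (chr15:74762056-74763620) encodes a small surface protein. In the thinned counts the Spearman rho of the pair was -0.677 over 128 cells, the largest in size of 153 pairs among 18 genes that were picked after first values had been seen, and the points share 1 library and its sort. With 3 thinned UMIs as the mark, 56 members had Csn3 and not Ly6d, 45 Ly6d and not Csn3, 9 both and 18 neither. Of the 23 members with more than 20 thinned Csn3 UMIs, 18 had 0 of Ly6d, and of the 13 with more than 20 Ly6d UMIs, 11 had 0 of Csn3. The rho was -0.655 with all UMIs, -0.628 in a second thinning and -0.726 without the cycling cells.

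**Figure D4:**
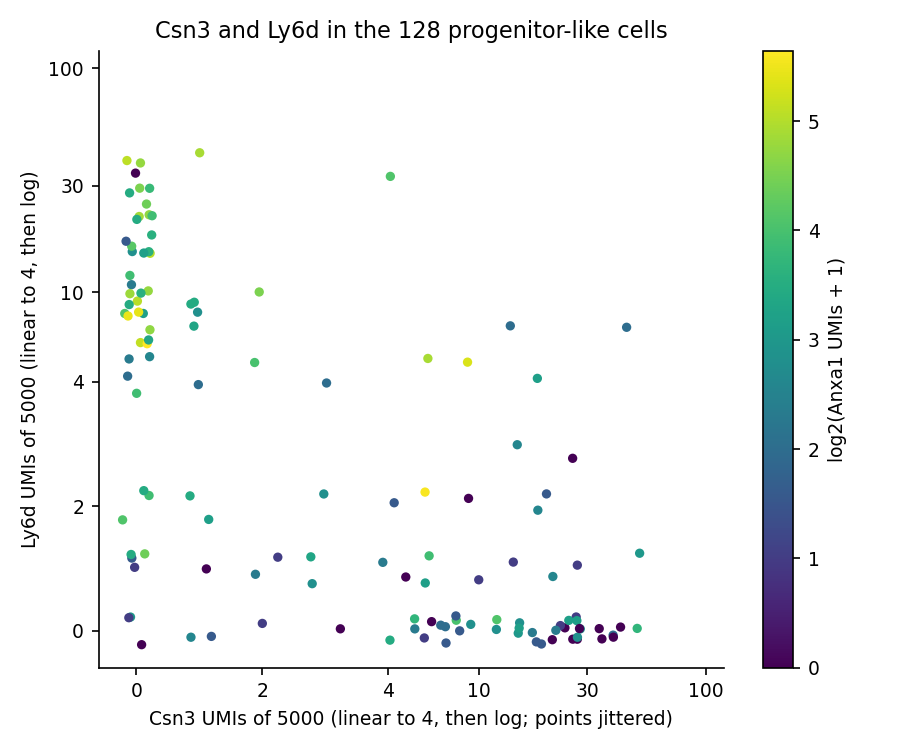
Ly6d (y axis) against Csn3 (x axis) in UMIs of 5000 for each of the 128 members, both axes linear to 4 and then logarithmic, coloured by Anxa1. Most cells lie near one of the axes, with 9 at 3 or more UMIs of both genes, and cells high on the Ly6d axis have more Anxa1. Anxa1 was chosen in these same cells by its rho with the pair.

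The 68 members with more Csn3 than Ly6d and the 56 with more Ly6d than Csn3 are ranges cut from these counts and not types, and 10 cells of each lay within 2 UMIs of the cut. Both sides had like Aldh1a3 and Wfdc18 levels, at 1272 and 1322 CPM and at 6444 and 6315 CPM. The keratins Krt14 and Krt7 were higher on the Ly6d side, at 1289.7 against 665 and 854 against 488 CPM. Genes were then ranked by the rho with Csn3 minus that with Ly6d, genes of ribosomal proteins with Rpl or Rps names aside, and 12 at each end were kept. The ranking and the sides came from the same cells. The differences of these genes between the sides thus follow from the choice and are given only as a description. On the Csn3 side, Apod, a lipid-binding secreted protein, was at 522 against 68.7 CPM and the imprinted noncoding RNA Meg3 at 474 against 116. The cartilage collagen gene Col9a1 was at 276 against 63.3 CPM, and Lcn2 at 2194 against 1065. On the Ly6d side, Nedd9, a scaffold of focal adhesions, was at 219 against 34.1 CPM, Arl4c, a small GTPase, at 322 against 57.7, and Wfdc2 at 1259 against 262. Anxa1, a phospholipid-binding annexin, was at 3015 against 1016 CPM, and the gap junction gene Gja1 at 355 against 97.1.

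Basal-like and hormone-sensing-like cells sat at opposite ends of the same pair. Of the 18 basal-like cells, 16 had more Csn3 than Ly6d and 0 more Ly6d. Of the 33 hormone-sensing-like cells, 29 had more Ly6d than Csn3 and 0 more Csn3. Of the 12 genes kept on the Csn3 side, 11 were higher in basal-like than in hormone-sensing-like cells, all but F3 (932 and 3.59 CPM for Apod, 1618 and 341 for Meg3). Of the 12 on the Ly6d side, 5 were (Nedd9, Arl4c, Gja1, Aldoa, Tiparp). The share of all genes higher in basal-like than in hormone-sensing-like cells is not given, so these gene counts are a description only. In the 50 Aldh1a3-low luminal cells, which the choice of the pair did not use, the rho was -0.579, with 24 cells on the Csn3 side, 23 on the Ly6d side and 2 with 3 or more UMIs of both. Ribosomal protein UMIs moved with the pair, with a median of 25.1% on the Csn3 side and 19.1% on the Ly6d side. Within the 64 members at or above the median ribosomal share the rho was -0.565, and within the 64 below it -0.650. The ribosomal share still varied within each 64, so this split cannot set it apart from the pair. The part of ribosomal protein UMIs in the pattern was not tested. The median depth was 10694 and 9237 UMIs and the median mitochondrial share 3.68% and 3.83% on the Csn3 and Ly6d sides.

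Markers of other cell types were checked in the members. The 7 immune and 6 adipocyte markers were at 0 UMIs, the 6 endothelial markers summed to 1.46 CPM and the 5 erythroid ones to 20.4 CPM, against 6946 CPM in all other kept cells. The 8 melanocyte and Schwann markers summed to 28.4 CPM, led by Mbp, with 6 of them at 0 UMIs. The mesenchyme markers were led by Col3a1 and summed to 323 CPM in the other epithelial cells, with 2 of the 12 at 0 UMIs, and members had a median of 2.5 collagen UMIs by the M sum. Of 15 skin epidermis markers, 7 were at 0 UMIs, and the list summed to 944 CPM, led by Lgals7, against 619 CPM in the other epithelial cells and 767 CPM in Aldh1a3-low luminal cells. It summed to 1152 CPM in basal-like cells, above the members, and to 303 CPM in hormone-sensing-like cells. Of the 3 tested, Sbsn and Dmkn were at least 2-fold higher in the members than in the other epithelial cells (3.62% of all genes were), 1 of the 3 was with every cell thinned, and none was higher than in Aldh1a3-low luminal cells. Against hormone-sensing-like cells 3 of 3 were higher (9.92% of all genes), and against basal-like cells 1 of 3 was (17.9% of all genes). The members' ribosomal protein share was lower than that of the other epithelial groups, at a median of 22.1% against 29.7% in hormone-sensing-like, 30.4% in basal-like and 28.1% in Aldh1a3-low luminal cells, and the counts of genes past 2-fold with these genes left out of the totals are given with each comparison. Immediate early and heat shock genes, which dissociation can raise, held 0 of 23 at least 2-fold higher than in the other epithelial cells and 1 lower (Fosb), 5 higher than in hormone-sensing-like cells (Fos, Fosb, Fosl1, Dusp1, Hspa1b; 9.92% of all genes were). Of 22 compared with basal-like cells, 4 were higher (Jund, Dusp1, Klf6, Hspa1b; 17.9% of all genes) and 1 lower (Egr1), and 3 of 23 were lower than in Aldh1a3-low luminal cells (Fos, Fosb, Atf3; 1.56% of all genes).

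By stage, the same rule found 0 cells of the E13.5 library, 2 of E14.5 and 30 of E15.5. Stage and library cannot be told apart, and the E15.5 table came from another Cell Ranger version, so levels are given side by side. In all cells that passed the luminal limits (61, 23, 445 and 227 cells from E13.5 to P0), Aldh1a3 was at 0.830, 10.1, 10.9 and 696 CPM. Passing these limits does not make embryonic cells luminal, and at E15.5 they had 2547 CPM of Krt14 and 1077 CPM of Krt8. Wfdc18 had 0 UMIs at each embryonic stage, where the exact interval at E15.5 reached 0.303 CPM, and 3995 CPM at P0. Snorc also had 0 UMIs at each embryonic stage, while Csn3 and Lcn2 had 1 UMI each at E15.5.

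Plet1 was already present before birth, and from E13.5 to P0 it was at 9.95, 25.9, 172 and 3184 CPM, and so was Cldn1, at 37.7 CPM at E15.5. Ly6d was at 101 CPM at E15.5, where Csn3 had 1 UMI. Notch1 had the opposite course, at 399.8, 391 and 374 CPM before birth and 88.6 at P0. Elf5 was at 71.3 CPM at E13.5, 0 UMIs at E14.5, 1.72 CPM at E15.5 and 23.6 at P0. The 30 E15.5 cells that met the rule had 103 Aldh1a3 UMIs among 1024172 UMIs in all and 0 of Wfdc18, Csn3 and Lcn2.

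**Figure D5:**
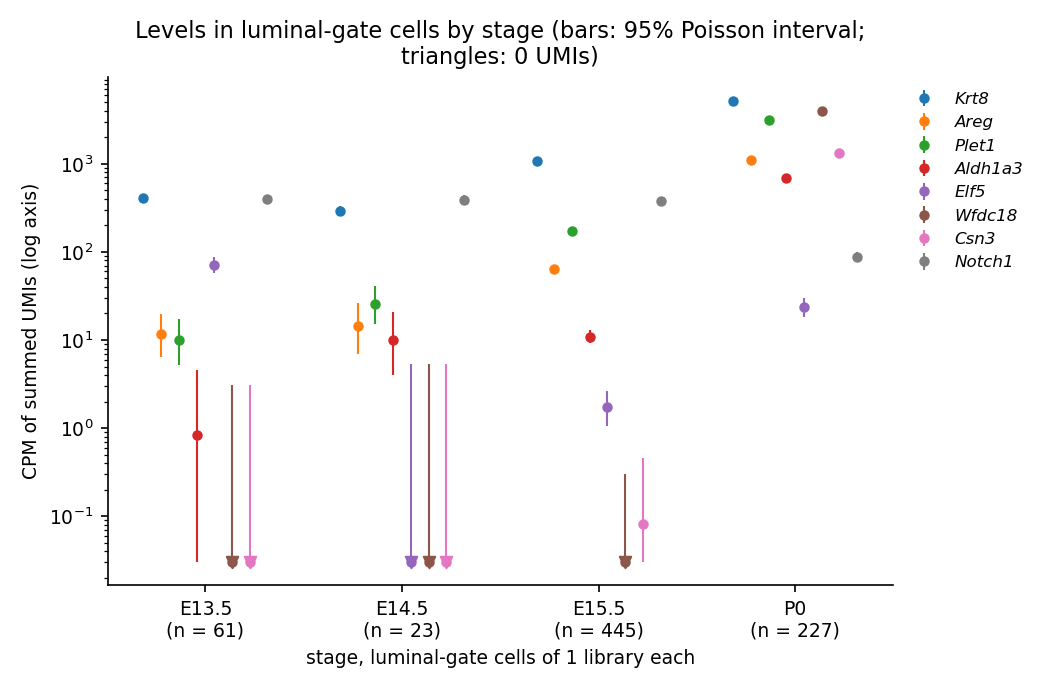
Level of 8 genes (y axis, CPM, logarithmic) in the cells of each stage that passed the luminal limits (x axis, 1 library each), with 95% Poisson intervals as bars and triangles for 0 UMIs. Wfdc18 and Csn3 are at or near 0 until P0, Plet1, Areg and Aldh1a3 are higher at P0 than at E15.5, and Notch1 is lower.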

How the data were processed

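Single-cell libraries of mammary tissue from 3 embryonic stages and P0, 1 per stage, were analysed, and no value has a replicate. The deposited matrices hold raw UMI counts per gene and barcode that the authors made with Cell Ranger on a pre-built mm10 reference. The submitters' processing notes name version 6.0.0, as do the headers of the E13.5, E14.5 and P0 tables, while the header of the E15.5 table names 3.1.0. The P0 table held 1466 barcodes, each with at least 500 UMIs, and 503 were kept after a minimum of 5000 UMIs per cell and a maximum of 6% from mitochondrial genes. The kept cells held 5122125 UMIs. The study used the same limits and states fewer cells at each stage than they leave here, and the difference was not traced, so shares of kept cells refer to the 503.

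Counts were summed over the cells of a group and divided by the group's total (CPM), with exact 95% Poisson intervals for levels, conditional binomial intervals for ratios and exact binomial intervals for shares. Ratio intervals were tested on simulated Poisson sums, the model they assume. Such sums hold no spread between cells, so that test cannot show how the intervals do with it. Ratios against 0 UMIs used 3 counts. UMIs are molecules, and intervals cover counting error only. No test across cells was made, since cells are not replicates. Shares were also computed after thinning to 5000 UMIs. No doublets were removed. Scrublet was run in scanpy 1.11.5, with Python 3.11.15, numpy 2.4.6, scipy 1.17.1, pandas 2.3.3 and matplotlib 3.10.9.

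Named genes were the 20 with the highest ratio over all other P0 cells, the 15 highest and 15 lowest against other epithelial cells, and the 10 highest and 10 lowest against hormone-sensing-like and against basal-like cells. They had a mean level of at least 20 CPM and a UMI in at least 25% of the cells of the higher group, and genes of the rule were left out. The 15 genes with the highest variance over mean in thinned members were also named. Members of the gene lists were named with the count of their list. The members, gene lists and comparisons were chosen with earlier results of these data known. Promoters came from the RefSeq table of GRCm38.p6 and gene coordinates from GENCODE M21 on GRCm38.

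Alternatives changed the limits on UMIs, mitochondrial share, Aldh1a3 and Cited1 plus Prlr, left out doublets or cycling cells, thinned cells, weighted cells equally, left mitochondrial and ribosomal protein genes out of the totals, or changed the minimum level.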

Additional observations from a re-analysis of the deposited data

Results flagged for a closer look

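Of the 963 P0 barcodes outside the depth and mitochondrial limits, 103 met the UMI counts of the rule, and 87 of these were under the UMI minimum. They are not part of any comparison above. Their median depth was 2267 UMIs and their median mitochondrial share 18.7%, against 9796 UMIs and 3.79% in the members. Together they had 2100 CPM of Aldh1a3 (1947 to 2262), 2478 CPM of Wfdc18 (2312 to 2653), 3765 CPM of Plet1, 1032 CPM of Csn3 and 738 CPM of Areg. The member levels were 1282, 6223, 4522, 1819 and 589 CPM for the same genes. The rule asks for at least 2 Aldh1a3 UMIs at any depth, so the Aldh1a3 level of these shallow barcodes follows in part from the choice. That level is given only as a description. Why Wfdc18 was lower in these barcodes was not tested.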

How the results depend on the processing

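The rule found 128 cells, between 114 and 145 under 6 of 7 alternatives, and 99 (19.7% of kept cells) with at least 4 Aldh1a3 UMIs. Of 102 gene ratios under 10 alternatives (1020 values), 1017 values kept their sign and 116 moved outside the counting interval, 28 of them under thinning, 22 with Cited1 and Prlr at 0 and 20 with at least 4 Aldh1a3 UMIs. The 3 of other sign were Areg against all other cells, near 0 as reported (log2 0.05) and lowest at -0.18 with Cited1 and Prlr at 0. The counts of genes past 2-fold followed the minimum level, by construction, since it sets how many genes are compared. At 10 CPM, 349 genes were higher and 362 lower than in other epithelial cells. At 50 CPM, 405 were higher than in all other cells, and 103 higher and 55 lower than in other epithelial cells. With no minimum these counts were 2131, 958 and 1189. Leaving mitochondrial and ribosomal protein genes out of the totals gave 323 lower genes against other epithelial cells, of 6346 compared, and 217 of the 5412 compared before. Cldn1 over hormone-sensing-like cells moved from 7.24 to 3.95 on the log2 scale under thinning, with 1 UMI in those cells. The sign of the list median changed with scaling for immediate early genes and progenitor markers against other epithelial cells, for EGF family and lipid genes against hormone-sensing-like cells, for immediate early, S phase, Notch and transcription factor genes against basal-like cells, and for immediate early, S phase and EGF family genes against Aldh1a3-low luminal cells. No paired analysis was possible because each stage has 1 library. Depth limits Elf5 and Kit, with under 40 UMIs each in the members.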

Other observations

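Sox9 and Hes1 were less than 2-fold apart between the members and Aldh1a3-low luminal cells. Sox9 had 427 CPM in Aldh1a3-low luminal and 220.1 CPM in basal-like cells, against 609 CPM in the members. Hes1, a Notch target, was at 171 CPM in Aldh1a3-low luminal cells and 167 CPM in the members. In the embryonic cells that passed the luminal limits Sox9 was at 229 CPM at E13.5, 296 CPM at E14.5 and 504 CPM at E15.5. The 30 E15.5 cells that met the rule had 571 CPM of Sox9 (526 to 619). Ly6d was at 54.7 CPM in those 30 cells, with a UMI in 16.7% of them. No background share is given for E15.5, so that share is not read as expression.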
